A study of Apis mellifera with 12 samples.

Results

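The genes described here are the 46 genes whose transcripts were highest in the brains of nurse bees, of 11336 genes in the bulk RNA-seq table of honeybee (Apis mellifera) brains. They were chosen on that table after the genes Mrjp1 to Mrjp9 were left out and the counts of each library were scaled to the same total (CPM). A gene entered the list when both nurse libraries were at 3 CPM or more, when the lower nurse library was at least 1.5 times the highest forager or queen library, and when the lower forager library was under 2 times the higher queen library. Without the last limit 55 genes would have entered. The bulk values therefore chose the genes and are given as a description, with no test, whereas the single-cell libraries were not used in the choice and were tested.

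The study compared adult brains of nurses, foragers and queens, with 2 single-cell libraries and 2 bulk libraries for each of these 3 groups. Nurses were workers seen tending larvae, foragers were workers of the same colony that carried pollen, and queens were reared and inseminated artificially. No age, strain or treatment was attached to any group. Each library came from a pool of several brains, so a value is the mean of a pool and not of 1 bee. The single-cell libraries hold dissociated cells of whole brains, counted by unique molecular identifiers (UMIs) at the 3′ ends of transcripts.

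Nurses are the young workers that feed the brood, and the hypopharyngeal glands in their heads secrete the major royal jelly proteins encoded by the Mrjp genes. Foragers collect nectar and pollen outside the hive. In the insect brain, Kenyon cells form the mushroom bodies, where odours are learned, and glia feed, insulate and clean up around neurons. The list mixes several kinds of genes. Hex110 encodes a hexamerin, a storage protein that the insect fat body secretes into the haemolymph. TpnCI and TpnT encode troponins, which make muscle contraction depend on calcium. Y-e3 belongs to the yellow family, to which the Mrjp genes are related, and NLG-3 encodes a neuroligin, a cell adhesion protein of synapses.

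The bulk libraries held between 13135057 and 15177035 estimated counts. The single-cell libraries kept 16761 to 20988 cells and 110046794 to 145180530 UMIs each, and at most 0.679% of the kept barcodes of one library were also found in another. Mrjp1 to Mrjp9 took 41.8% and 26.1% of the bulk counts of nurses, 1.51% and 9.79% of those of foragers, and 0.00811% and 0.00862% of those of queens. In the single-cell libraries Mrjp1 stood at 33.0 and 34.5 CPM in nurses, 0.624 and 0.699 in foragers, and 0.0648 and 0 in queens. Fewer cells of a type and less RNA in each cell cannot be told apart in bulk libraries, nor can RNA of tissue attached to the brain. The labels do not say that same-numbered libraries share bees or a day, and p-values measure the spread between 2 pools per group.

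In the bulk libraries the ratio of the lower nurse library to the highest other library had a median of 1.72 over the 46 genes. It reached 2 or more in 15 genes and 3 or more in 3. The largest ratio, 5.36, belonged to LOC724114, a protein-coding gene with no product named in the sources used here. It lies on chromosome 2, from 14002307 to 14003697 in the Amel_HAv3.1 genome. It stood at 177 and 210.4 CPM in nurses, 16.1 and 30.9 CPM in foragers, and 33.0 and 32.9 CPM in queens. LOC100578672 had 6.001 and 4.05 CPM in nurses and at most 1.16 CPM in the other libraries. LOC113218789, on chromosome 5 from 2998317 to 2999196, had 344 and 261 CPM in nurses, 29.0 and 85.4 CPM in foragers, and 24.7 and 18.3 CPM in queens. In each of these 3 genes the forager and queen libraries lay well under both nurse libraries, but the foragers were not alike in the last one.

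The ratios that followed lay between 2.63 and 2.11. LOC724569 stood at 7.93 and 8.95 CPM in nurses against at most 3.01 CPM elsewhere, and LOC113218576 at 63.5 and 36.2 CPM against at most 14.2 CPM. The long non-coding RNA LOC102654929 had 4.08 and 5.75 CPM in nurses, 0.386 and 1.63 CPM in foragers, and 0.279 and 0.771 CPM in queens. LOC100576293, LOC726725, LOC100578699, LOC413693 and LOC725354 had ratios of 2.26, 2.16, 2.16, 2.12 and 2.11. The nurse libraries of LOC726725 were at 3.62 and 10.6 CPM, so the pair differed by more than the ratio that put the gene in the list.

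**Figure D1:**
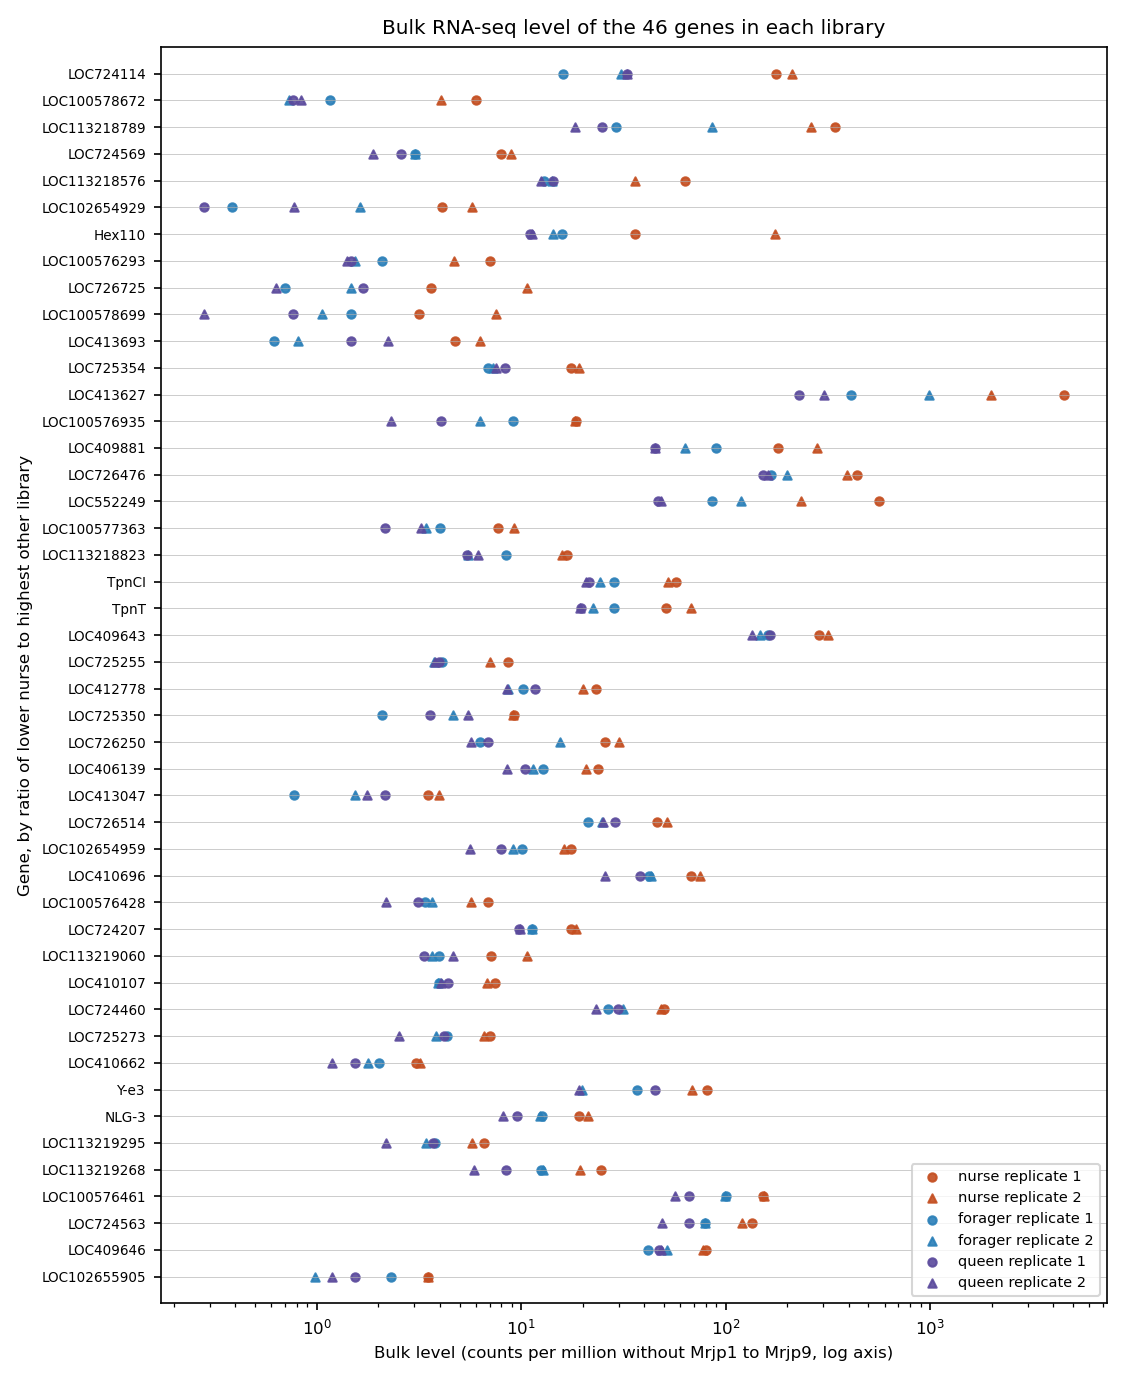
Bulk level of each of the 46 genes, in CPM without Mrjp1 to Mrjp9 on a log axis, with 1 point per library and genes ordered by the ratio of the lower nurse library to the highest other library. By the rule of choice the nurse points lie to the right of all others in every row, with the smallest gap, a ratio of 1.503, in LOC102655905.

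At the threshold, the genes just inside were LOC102655905, LOC409646 and LOC724563, with ratios of 1.503, 1.51 and 1.51. LOC410363, LOC552374 and LOC413698 were just outside, with ratios of 1.499, 1.496 and 1.495. The bulk levels of LOC409646 were 79.8 and 77.9 CPM in nurses, 41.6 and 51.6 CPM in foragers, and 47.4 and 48.1 CPM in queens, and those of LOC410363 were 83.8 and 229 CPM in nurses, 55.9 and 55.3 CPM in foragers, and 49.1 and 29.8 CPM in queens. The ratios thus changed little across the limit.

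The pair of nurse libraries agreed within 1.5 times in 39 of the 46 genes. Nurse replicate 1 was the higher in 25 genes and replicate 2 in 21. The mean of the foragers exceeded that of the queens in 34 genes. In LOC413627, the gene with the most CPM in the list, the nurses had 4522 and 1998 CPM, the foragers 409.5 and 992 CPM, and the queens 229 and 305 CPM. LOC552249 had 561 and 234 CPM in nurses, 86.2 and 119 CPM in foragers, and 46.4 and 48.1 CPM in queens. Both genes had the library order of the Mrjp share, which was nurse replicate 1, nurse replicate 2, forager replicate 2, forager replicate 1 and then the queens. This order held in 6 of the 46 genes, the others being LOC113218789, LOC726476, LOC100576428 and LOC113219268. The rule of choice fixed the nurse libraries above the rest, and the share of all genes with this order was not counted. The part of gland RNA in this order was not tested.

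Among genes with a known product, Hex110 differed most between the nurse pools. The gene lies on chromosome 11, from 13517503 to 13521591. Its bulk levels were 35.9 and 173 CPM in nurses, 15.8 and 14.4 CPM in foragers, and 11.03 and 11.4 CPM in queens. None of the other 4 fat body genes measured had both nurse libraries above the rest. The other hexamerin genes did not share 1 order of the nurse pools. Hex70a had 102 and 451 CPM in nurses, 9.89 and 16.7 CPM in foragers, and 195 and 392 CPM in queens. Nurse replicate 1 was instead the higher in HEX70b, at 30.004 and 25.8 CPM in nurses, and in Hex70c, at 13.02 and 1.51 CPM. Vg, the gene of the egg yolk precursor, had 107 and 747 CPM in nurses, 54.6 and 74.1 CPM in foragers, and 65805 and 57522 CPM in queens. The part of fat body RNA in the Hex110 values was not tested. TpnCI had 57.1 and 52.5 CPM in nurses, 28.4 and 24.2 CPM in foragers, and 21.4 and 20.7 CPM in queens. TpnT had 50.9 and 67.9 CPM in nurses, 28.4 and 22.3 CPM in foragers, and 19.7 and 19.4 CPM in queens. These were 2 of 7 troponin genes measured, and the lower nurse library of the other 5 was 0.558 to 1.21 times the highest of the forager and queen libraries. Y-e3 had 81.1 and 68.5 CPM in nurses, 36.9 and 19.9 CPM in foragers, and 45.0 and 19.2 CPM in queens.

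NLG-3 had 19.1 and 21.2 CPM in nurses, 12.6 and 12.4 CPM in foragers, and 9.50 and 8.13 CPM in queens. LOC410696 is annotated as protein madd-4, which in Caenorhabditis elegans is secreted by neurons and binds neuroligin at synapses. It had 68.0 and 75.1 CPM in nurses, 42.0 and 43.2 CPM in foragers, and 38.3 and 25.6 CPM in queens. LOC726476, an N-acetylglucosaminyltransferase of the Golgi that builds N-linked glycans, had 438 and 394 CPM in nurses, 167 and 199 CPM in foragers, and 153 and 160.4 CPM in queens. LOC726514, annotated as an adenylate cyclase, which makes the second messenger cyclic AMP, was at 45.97 and 51.7 CPM in nurses against at most 28.8 CPM elsewhere. LOC410662, annotated as lachesin, a cell surface protein of the immunoglobulin family, and LOC100576428, the homolog of a C. elegans protein that restrains epidermal growth factor signalling, were low in bulk, at 3.06 and 3.202 CPM and at 6.91 and 5.65 CPM in nurses. LOC102654959 is annotated only as a myb-like protein and had 17.4 and 16.1 CPM in nurses and at most 10.1 CPM elsewhere. The other 35 genes had no product named in the sources used here.

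Several genes with no product named in the sources used here were also at high CPM in nurses. The rule of choice fixed both nurse pools above the other libraries. LOC409643 had 285 and 316 CPM in nurses against 134 to 165 CPM in the other libraries, and LOC100576461 had 152 and 154 CPM against 56.4 to 101 CPM. LOC409881 had 180 and 281 CPM in nurses against 45.1 to 89.8 CPM elsewhere, and LOC724563 had 135 and 120.0 CPM against 49.0 to 79.5 CPM. CPM values are not divided by gene length and do not rank the genes against each other.

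By type, 42 of the 46 genes were protein-coding and 4 were long non-coding RNAs (8.70%), against 3.31% long non-coding RNAs among all genes at 3 CPM or more in both nurse libraries. The genes lay on 16 chromosomes, and the closest pair, LOC552249 and LOC406139 on chromosome 4, were 32492 bp apart. The annotated span of 23 genes overlapped that of another gene, and the strand used in counting the bulk reads was not given in the sources used here, so reads of such neighbours may be shared.

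To find whether the nurse bias was also present in cells of the brain, UMIs were summed over all kept cells of each library and the castes were compared. Single-cell levels are given as CPM of the UMI counts, scaled by the trimmed mean of M-values (TMM), except within clusters, where CPM are relative to the UMIs of the cluster alone. All 46 genes had a feature in the single-cell tables, and 44 passed the filter on low counts. The 2 that did not were LOC100578672 and Y-e3. Against the mean of foragers and queens, no member rose in nurses and 1 fell, at an adjusted p under 0.01 and a log2 fold change over 0.5 in size. Over all 11158 genes tested, 0.86% rose and 0.421% fell. At an unadjusted p under 0.05, 13 members were higher (29.5%) and 5 were lower (11.4%), against 18.2% and 15.4% of all genes. DESeq2 called 3 members higher and 2 lower, and 5.29% and 3.53% of all genes for which it gave an adjusted p.

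The log2 fold change was above 0 in 28 of the 44 members, against 50.7% of all genes. Its median was 0.16 for the members and 0.01 for all genes. Both nurse libraries were above all 4 other libraries in 12 members (27.3%), against 14.9% of all genes, and below all 4 in 3 members (6.82%), against 14.2% of all genes. The 12 were LOC100576293, LOC413627, LOC100577363, LOC725255, LOC412778, LOC726514, LOC410696, LOC100576428, LOC724207, LOC113219060, LOC724460 and LOC113219295, which were listed after their values were seen. In bulk, the log2 ratio of the nurse mean over the mean of the forager and queen means had a median of 1.24 over all 46 members. This ratio is not the same measure as the fitted single-cell log2 fold change, which averages foragers and queens on the log scale.

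The member that fell was Hex110. It stood at 2.67 and 2.15 CPM in nurses, 6.501 and 8.36 in foragers, and 10.1 and 8.45 in queens. The nurse libraries were the lowest, without overlap, which is the opposite of the order in bulk. The log2 fold change was -1.79 (SE 0.204, 95% interval -2.26 to -1.31), with an adjusted p of 0.00589. It stayed between -1.95 and -1.64 under all 13 alternatives, but its adjusted p passed 0.01 in 6 of them, reaching 0.0393 without nurse replicate 1, 0.057 without nurse replicate 2, 0.0154 without forager replicate 1 and 0.0124 without forager replicate 2. Of the 5 fat body genes, 4 were tested and Hex110 was the only one called against both other castes together.

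**Figure D2:**
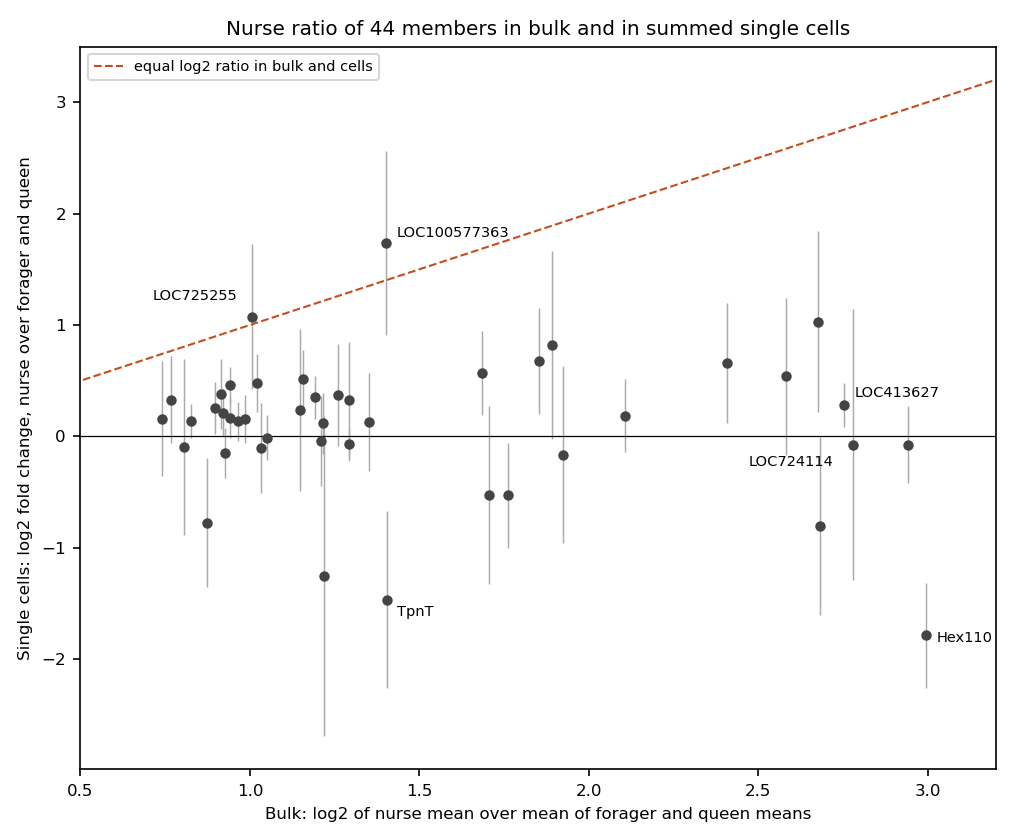
Nurse ratio of the 44 members tested in single cells, with the bulk log2 ratio of the nurse mean over the mean of the forager and queen means on the horizontal axis and the fitted single-cell log2 fold change on the vertical axis (bars, 95% intervals; dashed line, equal ratios). The points of 42 members have their whole interval under the dashed line, Hex110 is at -1.79 and LOC100577363 and LOC725255 reach the line.

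In 42 of the 44 members the upper end of the 95% interval in single cells was under the bulk ratio. Bulk values were used to choose the genes, so that ratio is not an independent estimate, and it averages foragers and queens before the log is taken. The 2 exceptions were LOC100577363 and LOC725255. LOC100577363 stood at 5.06 and 5.93 CPM in nurses, 1.04 and 2.57 in foragers, and 1.89 and 1.122 in queens. Its log2 fold change was 1.74 (SE 0.355, adjusted p = 0.0222), which did not pass the threshold. LOC725255 had 1.64 and 3.07 CPM in nurses and between 1.01 and 1.20 in the other libraries, with a log2 fold change of 1.07 (SE 0.279, adjusted p = 0.0412).

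Several members at high CPM in bulk were barely present in cells, where only the 3′ ends of transcripts were counted. Under 1 CPM in every library were 7 of the 46 members (15.2%), against 2.16% of the 8409 genes at 3 CPM or more in both bulk nurse libraries. LOC724114, at 177 and 210.4 CPM in nurse bulk, had 0.0993 and 0.202 CPM in nurse cells, 0.128 and 0.0787 in forager cells, and 0.345 and 0.141 in queen cells. LOC409881 had 0.19 and 0.287 CPM in nurses and 0.216 to 0.324 in the other castes. Y-e3 had 10 UMIs in all. LOC413627 had 37.5 and 38.5 CPM in nurses, 30.2 and 32.9 in foragers, and 31.8 and 29.99 in queens, so that its nurse libraries were above the others by a log2 fold change of 0.28 (SE 0.0845, adjusted p = 0.0602), against a bulk log2 ratio of 2.75. The other 5 genes with the bulk order of the Mrjp share had single-cell log2 fold changes of 0.66 in LOC552249, 0.48 in LOC100576428, 0.24 in LOC113219268, -0.07 in LOC113218789 and -0.07 in LOC726476, and none passed the threshold. LOC113218576 had 1.66 and 2.23 CPM in nurses, 0.992 and 2.17 in foragers, and 0.972 and 0.557 in queens.

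Against foragers alone, no member was called by edgeR in either direction, where 0.0538% of all genes rose and 0.0269% fell. DESeq2 called 3 members higher and 1 lower, against 3.1% and 1.33% of all genes. By edgeR, 11 members were higher and 2 lower at an unadjusted p under 0.05 (25% and 4.55%), against 13.5% and 10.5% of all genes. The log2 fold change was above 0 in 34 of 44 members, against 51.7% of all genes. Against queens alone, 4 members rose and 4 fell, that is 9.09% in each direction, where 6% of all genes rose and 6.05% fell. At an unadjusted p under 0.05 there were 16 members higher and 10 lower, that is 36.4% and 22.7%, against 23.1% of all genes in each direction, and DESeq2 called 7 higher and 6 lower, against 10.1% and 9.39% of all genes. In 27 members the log2 fold change was above 0, against 50% of all genes. The nurse libraries are shared by these comparisons, so that their values are not independent of each other.

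The 4 members that rose against queens were LOC410696, LOC412778, LOC724569 and NLG-3, named after their values were seen. LOC410696, the madd-4 gene, had 206 and 190.0 CPM in nurses, 185 and 188 in foragers, and 115 and 107 in queens, a log2 fold change of 0.84 over queens (SE 0.0836, adjusted p = 0.00137). NLG-3 had 166 and 199.8 CPM in nurses, 210.2 and 189 in foragers, and 123 and 128 in queens, a log2 fold change of 0.54 over queens (SE 0.108, adjusted p = 0.00928). In both genes all worker libraries stood above the queens. Nurses and foragers overlapped in NLG-3, and in LOC410696 the lower nurse library was just above the higher forager library. LOC412778 had 48.5 and 49.3 CPM in nurses, 44.6 and 44.4 in foragers, and 22.7 and 29.8 in queens. LOC724569 had 14.6 and 13.9 in nurses, 14.9 and 10.7 in foragers, and 7.77 and 6.65 in queens.

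The 4 that fell against queens were Hex110, TpnT, LOC102654929 and LOC725350. TpnT, which was highest in nurses in bulk, had 0.442 and 0.742 CPM in nurses, 0.453 and 0.69 in foragers, and 5.70 and 3.70 in queens, a log2 fold change of -2.98 against queens (SE 0.383, adjusted p = 0.0025). LOC102654929 had 0.172 and 0.304 CPM in nurses, 0.145 and 0.201 in foragers, and 1.06 and 0.947 in queens. LOC725350 had 84 UMIs in all. None of the 8 calls against queens held without nurse replicate 1 or without nurse replicate 2, 3 of them held without queen replicate 1 and 4 without queen replicate 2. The calls of NLG-3, LOC102654929 and LOC725350 were lost without any 1 of the 6 libraries, that of LOC724569 also without either queen library, and that of LOC412778 also without queen replicate 1.

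**Figure D3:**
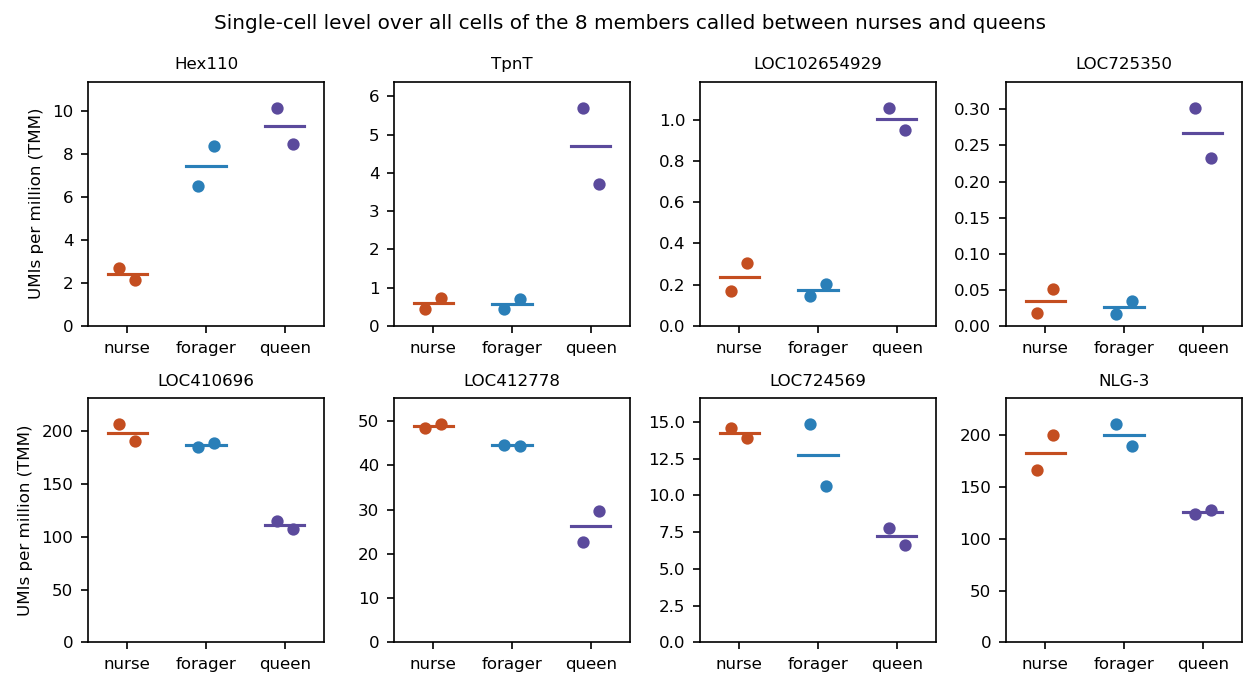
Single-cell level over all kept cells, in CPM (TMM), for the 8 members called between nurses and queens, with 1 point per library and a line at the mean of each caste (2 libraries each). In each panel but that of Hex110 nurses and foragers lie near each other and apart from queens, while in Hex110 the nurses, at 2.67 and 2.15, lie under both other castes.

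Cells were then divided by the markers of their clusters. The members and the genes that differed between castes were left out of the clustering. Of 43 clusters, 9 were Kenyon-like, 4 glia-like, 2 like olfactory projection neurons and 1 hemocyte-like, and 27 carried no name. Glia-like cells made up 7.44% and 9.54% of nurse cells, 4.81% and 6.20% of forager cells, and 3.52% and 4.6% of queen cells. The nurse mean exceeded that of the other castes by 3.71 percentage points (8.49% ± 1.48, n = 2, against 4.78% ± 1.10, n = 4, SD; exact permutation test, two-sided, p = 0.133, the smallest value that this design allows). This share moves with sums over all cells, and its part in them was not tested.

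In Kenyon-like cells, 39 members were tested, and 4 rose (10.3%) and none fell, against 2.18% and 1.1% of the 10462 genes tested. At an unadjusted p under 0.05 there were 14 members higher and 2 lower, that is 35.9% and 5.13%, against 18.1% and 17.7% of all genes, and DESeq2 called 5 higher and 2 lower, against 6.36% and 3.84% of all genes. The log2 fold change was above 0 in 29 members, against 49.1% of all genes. Both nurse libraries were above all 4 others in 13 members, against 15.6% of all genes, and below them in 2, against 17.6%. LOC410696 had 169 and 168 CPM in Kenyon-like cells of nurses, 155 and 156 in those of foragers, and 77.4 and 63.6 in those of queens (log2 fold change 0.69, SE 0.092, adjusted p = 0.006). LOC412778 had 40.7 and 40.7 in nurses, 35.3 and 33.1 in foragers, and 17.9 and 19.9 in queens (log2 fold change 0.68, SE 0.1, adjusted p = 0.00743). In both the foragers were close under the nurses and the queens far under both, in a class whose clusters the castes filled in unequal shares.

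LOC100576428 and the long non-coding RNA LOC113219060 had the other pattern, with foragers and queens alike. LOC100576428 had 121 and 143 CPM in Kenyon-like cells of nurses, 82.3 and 70.4 in those of foragers, and 87.0 and 69.7 in those of queens (log2 fold change 0.77, SE 0.12, adjusted p = 0.00838). LOC113219060 had 121 and 121 in nurses, 77.3 and 79.3 in foragers, and 86.2 and 73.2 in queens (log2 fold change 0.62, SE 0.0876, adjusted p = 0.00694). Without either nurse replicate or either forager replicate none of the 4 was called, and their log2 fold changes then lay between 0.61 and 0.90. Hex110 had 2.004 and 0.974 CPM in Kenyon-like cells of nurses, 4.96 and 7.85 in those of foragers, and 6.45 and 5.61 in those of queens, with a log2 fold change of -2.05 and an adjusted p of 0.0111.

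The Kenyon-like clusters 11 and 12, whose cells had 2.37 and 2.12 times the median UMIs of their libraries, together held 4.99% and 1.89% of the Kenyon-like cells of nurses, 17.7% and 14.9% of those of foragers, and 27.9% and 36.4% of those of queens. All 4 called members were lower there than in cluster 1, the largest Kenyon-like cluster. For LOC113219060 this order was given beforehand, since cluster 1 was its highest cluster of all, at 118 CPM. LOC410696 stood at 69.8 and 73.7 CPM in clusters 11 and 12 against 146 in cluster 1, and LOC412778 at 12.8 and 15.7 against 35.2. Without clusters 11 and 12, an alternative added after the data were seen, 2 members rose and none fell, against 0.978% and 0.348% of all genes, and 1 of the 4 calls held. It was that of LOC113219060, at 126 and 123 CPM in nurses, 83.4 and 81.0 in foragers, and 76.9 and 71.8 in queens (log2 fold change 0.67, SE 0.077, adjusted p = 0.00648). The other call was LOC100576293, at 24.3 and 25.9 CPM in nurses, 10.8 and 8.69 in foragers, and 9.71 and 14.0 in queens (log2 fold change 1.23, SE 0.171, adjusted p = 0.00882). Unlike the others, this gene was highest in cluster 12, at 26.1 CPM, with 18.5 in cluster 11 and 24.6 in cluster 1. Leaving out clusters 11 and 12 thus removed cells in which it was high, more of them from foragers and queens than from nurses.

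LOC100576428 then had a log2 fold change of 0.64 (adjusted p = 0.0211) and LOC412778 one of 0.42 (adjusted p = 0.0463). LOC410696 had 177 and 171 CPM in nurses, 175 and 171 in foragers, and 98.1 and 86.6 in queens, with a log2 fold change of 0.46 (adjusted p = 0.0171). Nurses and foragers thus overlapped in LOC410696, and the queens stayed under both.

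**Figure D4:**
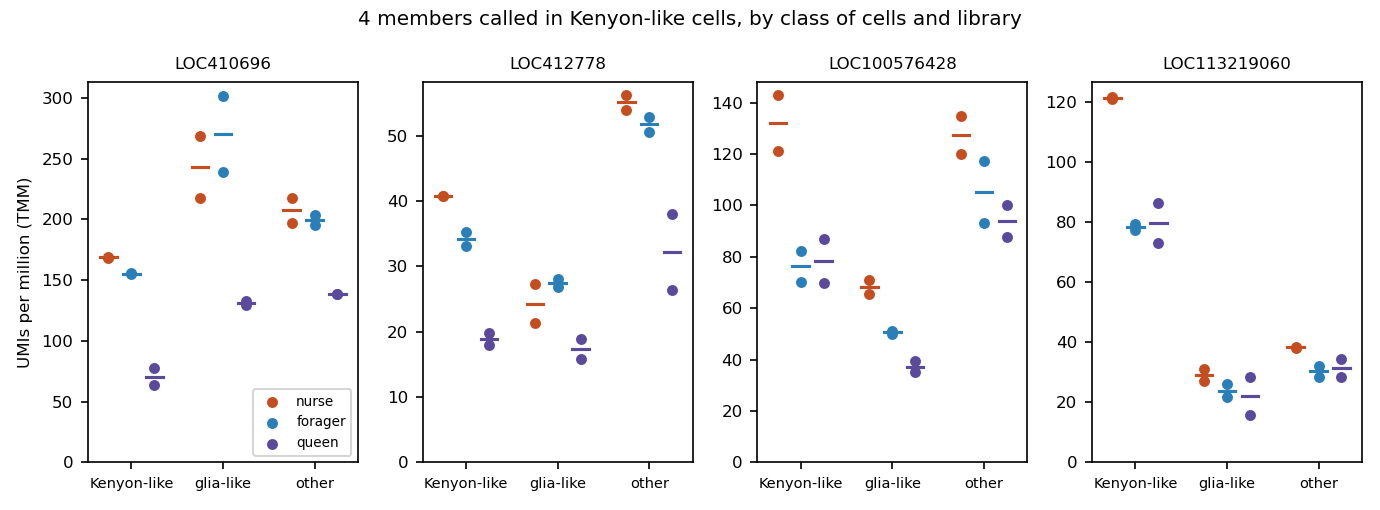
Single-cell level in CPM (TMM) of the 4 members called in Kenyon-like cells, in Kenyon-like, glia-like and other cells, with 1 point per library, a line at the mean of each caste and colours for nurses, foragers and queens. LOC100576428 and LOC113219060 stand above both other castes in Kenyon-like cells of nurses, where LOC113219060 is at 121 and 121 against 86.2 or less.

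In glia-like cells, 35 members were tested and none was called by edgeR or by DESeq2, where 0.375% of the 9322 genes tested rose and 0.279% fell by edgeR, and 0.71% and 1.72% of all genes by DESeq2. At an unadjusted p under 0.05, 6 were higher and 4 lower, that is 17.1% and 11.4%, against 11% and 10.4% of all genes. In 24 members the log2 fold change was above 0, against 51.3% of all genes, and both nurse libraries were above all others in 5 members, against 11.4%, and below them in 3, against 9.41%. The member with the lowest adjusted p there was LOC100576428, at 65.5 and 70.9 CPM in nurses, 51.1 and 50.1 in foragers, and 39.4 and 35.1 in queens (log2 fold change 0.65, SE 0.121, adjusted p = 0.0214). LOC100577363 had 19.7 and 21.2 in nurses, 2.68 and 7.29 in foragers, and 14.0 and 13.9 in queens (log2 fold change 1.24, SE 0.267, adjusted p = 0.0342). Cluster 36, where this gene peaked, made up 6.59% and 6.05% of the glia-like cells of nurses, 4.98% and 8.92% of those of foragers, and 20.8% and 19.5% of those of queens. Without it, also an alternative added after the data were seen, no member was called, against 0.313% of all genes higher and 0.303% lower, and LOC100577363 had 9.44 and 12.8 CPM in nurses, 1.17 and 2.46 in foragers, and 4.35 and 2.29 in queens (log2 fold change 2.12, SE 0.347, adjusted p = 0.0126). In the cells that were neither Kenyon-like, glia-like nor hemocyte-like, 44 members were tested, none rose, and Hex110 fell, against 1.2% and 0.893% of all genes. There 13 members were higher and 5 lower at an unadjusted p under 0.05, against 18.3% and 15.6% of all genes, and DESeq2 called 3 higher and 3 lower, against 4.05% and 3.71% of all genes. In 32 members the log2 fold change was above 0, against 51% of all genes, and both nurse libraries were above all others in 9, against 14.5%, and below them in 4, against 13.1%. Hex110 had 3.01 and 2.72 CPM in these cells of nurses, 7.48 and 8.79 in those of foragers, and 12.6 and 10.7 in those of queens, a log2 fold change of -1.77 (SE 0.175, adjusted p = 0.00174), and this call did not hold without nurse replicate 1 (adjusted p = 0.017) or nurse replicate 2 (adjusted p = 0.0206). Hemocyte-like cells, 12 to 173 per library, were too few to be tested.

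The members did not belong to one type of cell. Of the 43 members with 100 UMIs or more in these 3 classes, 14 had their highest mean level in glia-like cells, 10 in Kenyon-like cells and 19 in the other cells, and 8, 3 and 4 of them exceeded the next class by 2 times or more. The same class was highest in all 6 libraries in 22 members. LOC552249 averaged 23.3 CPM in glia-like cells, 2.47 in Kenyon-like cells and 3.11 in other cells. LOC113218576 averaged 8.23, 1.05 and 1.20 in the same classes, and LOC100577363 averaged 13.1, 2.29 and 2.502. The Kenyon-like cells led for LOC100576293, at 18.5 CPM against 4.40 in glia-like and 3.72 in other cells, for LOC113219060, at 93.0 against 25.1 and 33.3, and for LOC102654959, at 303 against 91.2 and 127. The other cells include the unnamed cluster 13, which was the second highest cluster of LOC102654959, at 871 CPM. LOC410662, the lachesin gene, averaged 96.6 in the other cells against 37.7 in glia-like and 31.6 in Kenyon-like cells.

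**Figure D5:**
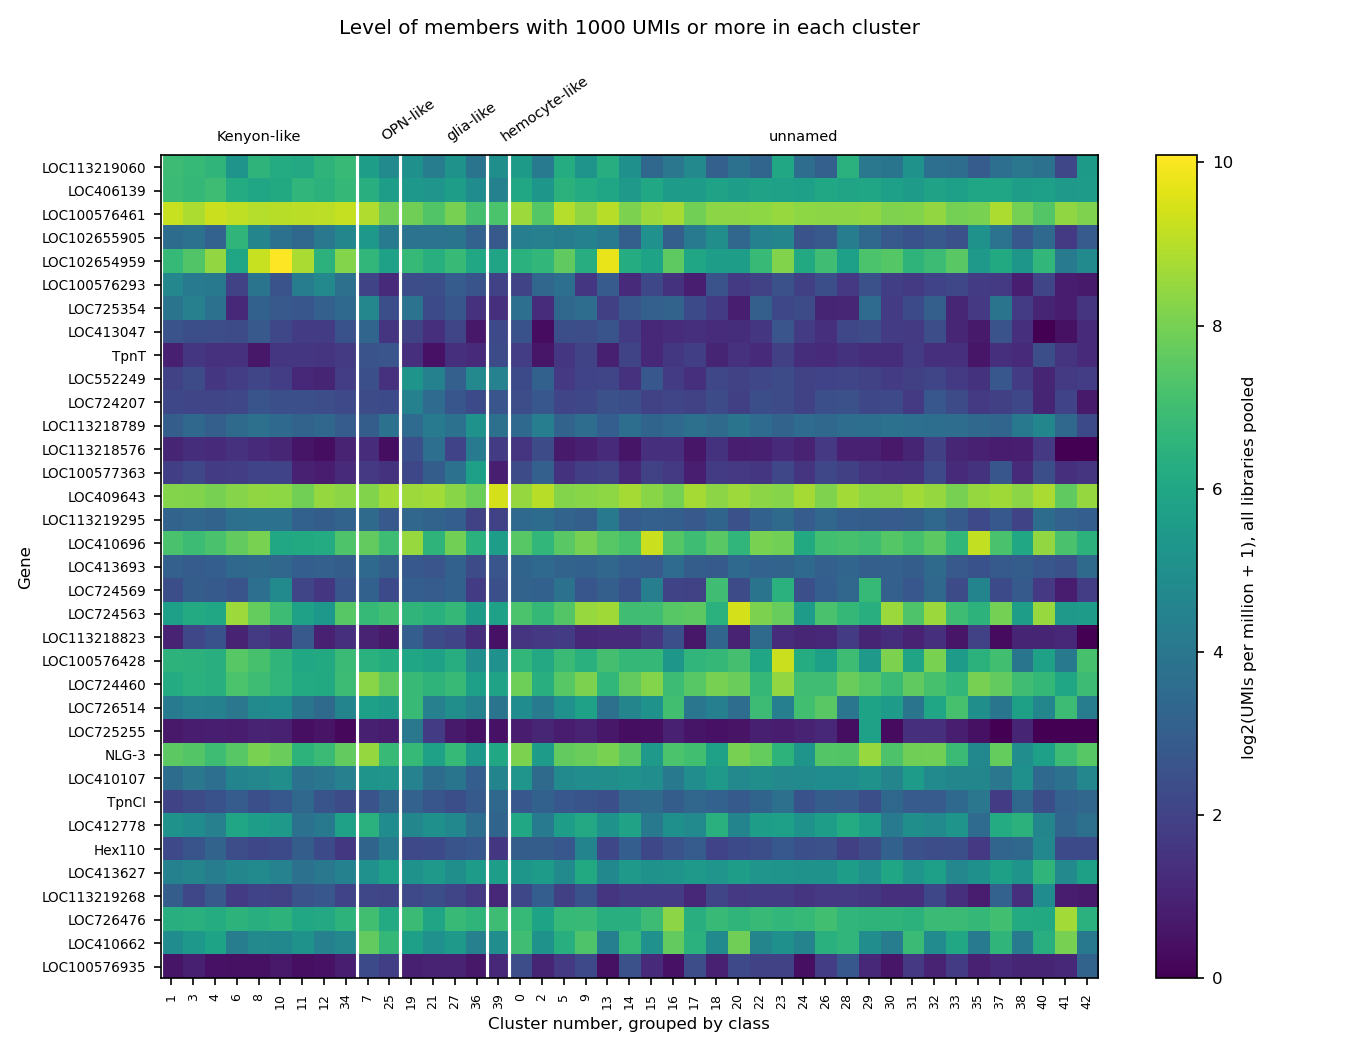
Level of the 35 members with 1000 UMIs or more in each of the 43 clusters, as log2 of CPM plus 1 with all libraries pooled and clusters grouped by class. Genes such as LOC409643 and LOC100576461 are high across the clusters, while LOC725255 is high in cluster 29, and LOC552249 in the glia-like clusters 19, 21 and 36 and the hemocyte-like cluster 39.

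The clusters in which members were highest were chosen for their values and are therefore given without a test. LOC725255 reached 53.0 CPM in cluster 29, whose 1638 cells held 41.9% of its UMIs, against a median of 0.683 over the clusters. In that cluster it stood at 47.1 and 88.8 in nurses, 54.7 and 39.3 in foragers, and 29.996 and 30.3 in queens. LOC724569 reached 126 CPM in cluster 18, which held 18.5% of its UMIs, and 106 in cluster 29, against a median of 6.23. In cluster 18 it stood at 147 and 135 in nurses, 164 and 126 in foragers, and 57.7 and 72.6 in queens. For each gene in its highest cluster the queens were lowest, and nurses and foragers overlapped.

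LOC100577363 reached 50.8 CPM in cluster 36, a glia-like cluster of 663 cells. With all libraries pooled, this cluster was led by immune genes such as Apid1, the precursor of the antimicrobial peptide apidaecin. Over all cells Apid1 itself stood at 0.0722 and 0.118 CPM in nurses, 0.077 and 0.105 in foragers, and 8.26 and 31.1 in queens. In cluster 36 LOC100577363 had 114 and 119 CPM in nurses, 24 and 38.4 in foragers, and 26.7 and 26.4 in queens. Both nurse libraries were thus far above the others. LOC102654959 reached 1085 CPM in cluster 10, a Kenyon-like cluster, against a median of 100.1, with 1127 and 945 in nurses, 1337 and 1181 in foragers, and 978 and 935 in queens. LOC724563 reached 683 in cluster 20, with 852 and 955 in nurses, 517 and 497 in foragers, and 513 and 512 in queens. LOC102655905 reached 96.5 in cluster 6, a Kenyon-like cluster, where the queens were highest, at 150.1 and 140.4, against 63.6 and 57.7 in nurses and 56.9 and 46.1 in foragers. At the other end, the top cluster was under 3 times the median in 10 of the 31 members with 100 UMIs or more in it, among them LOC100576461, NLG-3 and TpnCI.

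The other genes of these families were compared over all cells, against both other castes and with the same test. For all lists that follow, 0.86% of all genes rose and 0.421% fell. At an unadjusted p under 0.05 these shares were 18.2% and 15.4%, and by DESeq2 5.29% and 3.53%. Against queens alone 6% of all genes rose and 6.05% fell. With so few genes in a list, its counts cannot be set closely against these shares. Of 7 troponin genes tested, none rose in nurses and 1, TpnCIIa, fell, while against queens alone TpnCIIIa, TpnCIIIb, TpnCIIa and TpnT fell. At an unadjusted p under 0.05 no troponin was higher and 4 were lower, and DESeq2 called 3 lower. TpnCI had 6.83 and 5.57 CPM in nurses, 5.28 and 4.13 in foragers, and 8.67 and 8.63 in queens (log2 fold change -0.04, SE 0.174, adjusted p = 0.888). The troponins summed to 25.003 and 19.9 CPM in nurse cells, 22.5 and 23.3 in forager cells, and 58.5 and 48.4 in queen cells. In bulk they summed to 320.4 and 499 CPM in nurses, 337 and 206 CPM in foragers, and 133 and 115 CPM in queens. In these sums queens were thus the highest caste in cells and the lowest in bulk, but different genes weighed most in each sum. TpnCIIIb had 19.7 and 17.1 CPM in queen cells but 1.82 and 0.981 CPM in queen bulk. TpnI had 81.0 and 134 CPM in nurse bulk but 1.22 and 0.616 in nurse cells. In cells queens did not stand above the rest in TpnI, at 1.17 and 0.44, or TpnCIIb, at 0.252 and 0.507, but did in the other troponins. The part of muscle attached to the brain was not tested.

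Of the 4 neuroligin and neurexin genes tested, none was called against both other castes by edgeR or DESeq2, 2 were higher at an unadjusted p under 0.05, and 3 rose against queens. Of 4 fat body genes tested, Hex110 fell, 3 were lower at an unadjusted p under 0.05, and DESeq2 called 3 lower. Against queens alone Vg, Hex70a and Hex110 fell and none rose, where 6.05% of all genes fell. Y-e3 was too low to be tested, and of the other 3 yellow genes none was called by edgeR, 1 was higher at an unadjusted p under 0.05 and DESeq2 called 1 higher. Of 10 hypopharyngeal gland genes, 9 were tested and Mrjp1 to Mrjp5 rose in nurses. Of 10 glial markers, none was called by edgeR, 5 were higher at an unadjusted p under 0.05, and DESeq2 called 3 higher.

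No member belonged to the remaining lists. Of 7 immune genes, LOC406142 fell, and 4 were lower at an unadjusted p under 0.05 and by DESeq2. Against queens alone Apid1, Def1, LOC406142 and LOC406144 fell and none rose. None was called by edgeR among 3 hemocyte, 5 photoreceptor, 4 secretory pathway, 19 cuticle, 19 binding protein and 3 neuron genes tested. At an unadjusted p under 0.05 the numbers higher in these lists were 0, 1, 3, 3, 2 and 1 and the numbers lower were 1, 1, 0, 4, 3 and 0, in the same order. DESeq2 called 1 secretory pathway gene higher, 2 cuticle genes higher and 2 lower, and 1 binding protein gene higher.

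Summed over the 46 genes, the bulk level was 7637 and 4939 CPM in nurses, 1538 and 2205 CPM in foragers, and 1209 and 1162 CPM in queens. Without LOC413627 it was 3116 and 2941 CPM in nurses, 1128 and 1213 CPM in foragers, and 980 and 858 CPM in queens. In cells the sum was 2371 and 2284 CPM in nurses, 2230 and 2154 in foragers, and 2242 and 1996 in queens. The nurse libraries were the highest in each of these sums, by a wide margin in bulk and a narrow one in cells. In bulk the rule of choice fixed this order. In cells a few abundant genes weighed most in the sum and did not all lean the same way. LOC409643 had 384 and 339 CPM in nurse cells and a log2 fold change of 0.16. LOC100576461 had 380 and 372 CPM there and a log2 fold change of -0.15.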

How the data were processed

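Single-cell and bulk RNA-seq of adult brains were analysed, with 2 libraries of each kind for each of 3 castes. The authors aligned the bulk reads with STAR and the deposited values are RSEM expected counts per gene, of which 7.36% to 8.03% per library were not whole. The deposited single-cell matrices hold UMI counts per gene and barcode made with Cell Ranger 3.1.0, and per the labels the submitters also used Seurat 3.1.5, Trimmomatic 0.39 and DESeq2 1.32.0. The genome was Amel_HAv3.1.

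The bulk values were scaled to CPM without Mrjp1 to Mrjp9 and used only to choose and describe the genes, by the rule given at the start of the report. Cells with 200 to 5000 genes, more than 500 UMIs, no more UMIs than the third quartile plus 1.5 interquartile ranges of the caste and under 15% of counts in genes with a mitochondrial prefix were kept, which left 115169 of 141510 barcodes. Doublets were not called, and a fit without the deepest 5% of cells was run. UMIs were summed over cells of each library and tested with the quasi-likelihood test of edgeR 4.0.16 (TMM factors, 3 castes in 1 fit, p-values adjusted by Benjamini-Hochberg over all genes tested). A call needed an adjusted p under 0.01 and a log2 fold change over 0.5 in size. The share of cells was tested by an exact permutation test over libraries. Cells were clustered (leidenalg 0.10.2, resolution 1) without 1952 genes, namely the members and the genes differing between castes, and named from markers. Only the edgeR and DESeq2 fits over all cells, nurses against both other castes, were tested on simulated counts. Of 200 genes changed by a log2 of 1, edgeR called 142 and DESeq2 157, with 4 and 13 false calls. At a log2 of 2 they called 197 and 187, with 2 and 19 false calls.

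The text names the 12 members with the largest bulk ratio, the 12 with the highest nurse CPM, those called over all cells, members of the fixed lists (hypopharyngeal gland, muscle, fat body, hemocyte, glia, photoreceptor, secretory pathway, immune, cuticle, binding proteins, yellow family, neuroligin and neurexin, neuron), and 3 genes on each side of the ratio of 1.5. Others were named after their values were seen. The members and the lists were chosen with earlier results of these data known. Lists planned by product name were reduced to genes identifiable by symbol. Alternatives were DESeq2 1.42.0, no filter on low counts, the replicate number as a block, each library left out, other cell limits, coarser clusters, other settings of the list and, added after the data were seen, classes without the clusters that the castes filled unequally. The depth sets the precision of low genes, since 1 UMI in a library is under 0.01 CPM.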

Additional observations from a re-analysis of the deposited data

Results flagged for a closer look

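In 3 of the 44 members tested, both nurse libraries were below all 4 forager and queen libraries in single cells and above all 4 in bulk, where the rule of choice fixed the order. These are 6.82% of the members, against 14.2% of all genes below all 4 in single cells. Hex110 had a single-cell log2 fold change of -1.79, nurses over the mean of the other castes. LOC725273 had one of -0.77, with single-cell levels of 0.614 and 0.565 CPM in nurses, 0.693 and 0.76 in foragers, and 1.58 and 1.21 in queens (adjusted p = 0.075 by edgeR). LOC100576935 had one of -0.53, with 1.38 and 1.39 CPM in nurses, 1.67 and 1.43 in foragers, and 2.63 and 2.53 in queens (adjusted p = 0.115 by edgeR). The difference between bulk and cells was not itself tested.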

How the results depend on the processing

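The list depended strongly on its settings. It held 46 genes, but 7 with Mrjp1 to Mrjp9 kept in the totals, 15 at a ratio of 2, 170 at a lower ratio, 28 at a floor of 10 CPM and 53 to 187 without 1 bulk library, and 28 of the 32 genes under TMM scaling were shared with it.

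Over all cells, against both other castes, edgeR called 143 genes and 1 member. DESeq2 called 935 genes and 5 members, every deposited barcode gave 59 genes and 0 members, and leaving out 1 library gave 4 to 129 genes and 0 to 1 members. Against foragers, 9 genes and 0 members were called. DESeq2 called 480 and 4, every deposited barcode gave 5 genes, leaving Mrjp1 to Mrjp9 out of the sums gave 0 genes, and leaving out 1 library gave 1 to 14 genes and 0 members. Against queens, 1345 genes and 8 members were called. DESeq2 called 2206 and 13, every deposited barcode gave 3 members, and leaving out 1 library gave 54 to 1160 genes and 0 to 6 members.

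In Kenyon-like cells 343 genes and 4 members were called. DESeq2 called 1004 and 7, no filter on low counts gave 216 genes, leaving out clusters 11 and 12 gave 137 genes and 2 members, and leaving out 1 library gave 0 to 490 genes and 0 to 5 members. In glia-like cells 61 genes and 0 members were called. DESeq2 called 219 genes, no filter gave 206 genes and 2 members, and leaving out 1 library gave 2 to 267 genes and 0 members. In the other cells 230 genes and 1 member were called. DESeq2 called 822 and 6, no filter gave 2 members, and leaving out 1 library gave 21 to 162 genes and 0 to 1 members. The excess of the glia-like share lay between 2.66 and 4.76 percentage points without 1 library. The cause of these shifts was not tested, beside the smaller number of libraries.

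With the replicate number as a block, the calls over all cells were 76 genes and 0 members against both other castes, 4 genes against foragers, and 891 genes and 5 members against queens. They were 102 genes and 0 members in Kenyon-like cells, 97 genes in glia-like cells and 134 genes in the other cells. The labels do not say what the number marks. The deviations of same-numbered libraries correlated between -0.18 and 0.0909, which cannot show whether these libraries shared bees or a day. Among the values of single genes under 1 alternative each, 75 lost and 31 gained a call, and no called value changed sign.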
